A study of Homo sapiens with 64 samples.

Results

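The comparison described here is the knockdown of fibrillarin (FBL) in HEK293T cells at 0 h, the first hour of a time course. It rests on 4 of the 64 libraries of the series: HEK293T with siFBL at 0 h (2 libraries, replicates 1 and 2) set against HEK293T with siCTRL at 0 h (2 libraries, replicates 1 and 2). The members were taken by siRNA, hour and replicate from the sample labels. HEK293T is a human embryonic kidney line that carries the adenoviral E1 genes and the large T antigen of simian virus, siFBL is a small interfering RNA (siRNA) against FBL, and siCTRL is the control siRNA. The labels give polyA RNA from this cell line, with no dose and no time since transfection, and nothing in them says whether the libraries of a pair came from different cultures. The p-values here therefore measure only how far these samples spread, which may be technical. The other 20 HEK293T libraries of the time course entered the fit only to estimate that spread.

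Fibrillarin adds methyl groups to RNA as the enzyme of the box C/D snoRNP, a small nucleolar ribonucleoprotein. In this particle a small nucleolar RNA (snoRNA) of the box C/D class, a SNORD, pairs with ribosomal RNA and guides the methyl group to the 2′ hydroxyl of a ribose. NOP56 and NOP58 hold the particle together, and NHP2L1 (SNU13) binds the RNA first. Most SNORDs of human cells are cut from introns of host genes, many of which encode ribosomal proteins or translation factors. Disturbed ribosome assembly is known to free ribosomal proteins that bind MDM2 and so stabilise p53; in HEK293T cells, large T antigen binds p53.

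The 4 libraries held 16.66 and 17.54 mega (M) counts with siFBL, against 16.95 and 17.44 M counts with siCTRL. Of 25207 genes in the deposited tables, 14939 passed the filter on low counts and were tested. Each of the 12 HEK293T markers examined, among them VIM, LIN28B and ZIC2, had counts in every library. The prostate genes KLK2 and KLK3, the leukocyte genes CD3E and MS4A1 and the fibroblast genes COL1A2, DCN and FAP were at 0 in all 4 libraries. The summed prostate marker level was 66.2 and 72.0 CPM with siFBL, against 78.1 and 77.2 CPM with siCTRL, over 15 genes. CPM are counts per M counts of the library, with its size scaled as described under the processing below. The 8 leukocyte markers summed to 5.36 and 6.26 CPM with siFBL, against 4.12 and 4.86 CPM with siCTRL, and the 9 fibroblast markers to 18.7 and 22.2 CPM with siFBL, against 27.1 and 24.0 CPM with siCTRL. None of these 3 lists held a called gene. Among their members with the highest levels were HOXB13 (log2 change -0.29) and FOXA1 (-0.05) of the prostate list, LCP1 (0.38) of the leukocyte list, and COL1A1 (-0.32) and PDGFRB (0.66) of the fibroblast list.

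The siFBL libraries differed from each other more than the siCTRL libraries did, which bears on each result below. Over 10686 genes of at least 5 CPM, the log2 difference between the 2 siFBL libraries had an SD of 0.43, against 0.10 between the 2 siCTRL libraries. The level of 356 of these genes differed by more than 1 on the log2 scale between the siFBL libraries, and that of 0 genes between the siCTRL libraries. A chi-square test of the counts gave 47.0 per degree of freedom for the siFBL pair and 1.56 for the siCTRL pair. Replicate 2 lay farther from the siCTRL mean than replicate 1, with a root mean square log2 difference of 0.51 against 0.35. The difference between siFBL replicates was stable over hours: across genes, which are not independent replicates, that at 0 h correlated with that at 6, 12 and 24 h at r = 0.84, 0.81 and 0.79, and the siCTRL difference at 0.01, -0.01 and -0.01. The fit counts libraries of different hours as independent although the siFBL replicates deviated alike at each hour, and the effect of this on the p-values was not tested beyond the alternatives given below.

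**Figure D1:**
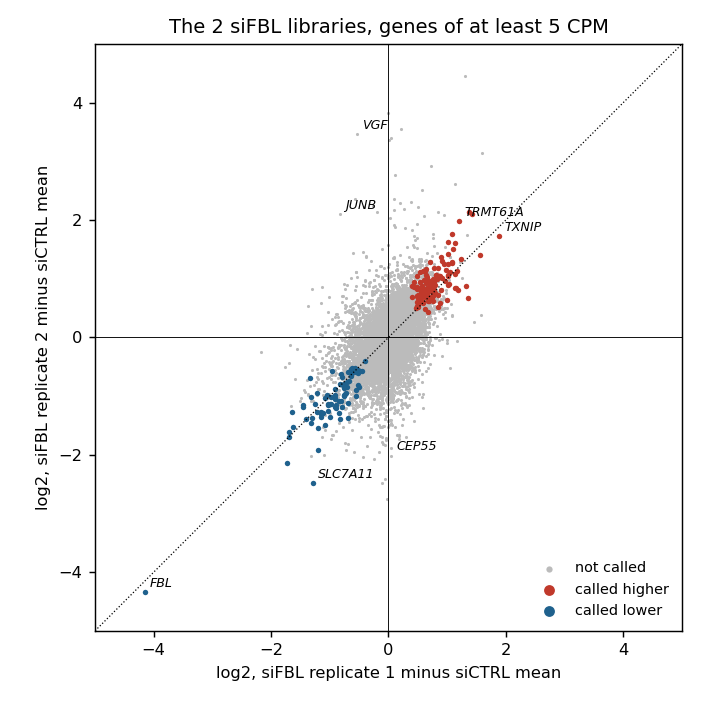
Change of each gene of at least 5 CPM in siFBL replicate 1 (x axis) and replicate 2 (y axis), both as the log2 difference from the mean of the 2 siCTRL libraries; red and blue points were called higher and lower, grey points were not called, and the dotted line marks equal change. FBL lies near the diagonal, at -4.16 in replicate 1 and -4.34 in replicate 2, while VGF lies at -0.54 in replicate 1 and 3.46 in replicate 2.

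The targeted transcript was lower in both siFBL libraries. FBL had 17.7 and 15.5 CPM with siFBL, against 322 and 313 CPM with siCTRL, a 19.1-fold lower level (log2 change -4.26 ± 0.34, SE; edgeR quasi-likelihood test with Benjamini-Hochberg adjustment, adjusted p = 1.21e-05). This was the lowest adjusted p and the largest fall among the genes tested. It was called under each of the 15 alternative settings, with log2 changes between -4.38 and -4.15. In bulk RNA, a deep knockdown in most cells and a complete one in part of them cannot be told apart.

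With siFBL, 260 of the 14939 genes were called at an adjusted p below 0.05 (1.74%): 139 were higher (0.93%) and 121 lower (0.81%). The called changes were moderate, with a median absolute log2 change of 0.98, and 123 exceeded 1 on the log2 scale. Both siFBL libraries stood on the same side of the siCTRL mean in all 260, which selection by the test makes likely. They did so in 7567 of the 10686 genes of at least 5 CPM. Among all genes tested, 4997 (33.4%) had both siFBL libraries above both siCTRL libraries and 3944 (26.4%) had both below. At an unadjusted p below 0.05, 1542 genes were higher and 1144 lower. The split depended on the scaling: 79 genes were higher and 243 lower after upper quartile normalisation, which moved the median log2 change of all genes to -0.07, and 116 were higher and 56 lower when ribosomal protein mRNAs were held constant, which moved it to 0.15. With the scaling used here, the trimmed mean of M-values (TMM), that median was 0.04, and list medians below are read against it. Counts of called list members are read against the 0.93% higher and 0.81% lower of all genes. At these shares, 0 or 1 call in a list says little about the list as a whole. List counts at an unadjusted p below 0.05 are read against the 1542 and 1144 of 14939 genes.

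How many genes were called depended on which libraries entered the fit. With the 4 libraries alone, FBL was the 1 gene called, although 3600 genes had an unadjusted p below 0.05. Without siFBL replicate 1, 165 genes were called, of which 112 were among the 260. The count was 13 without siFBL replicate 2, 10 without siCTRL replicate 1 and 11 without siCTRL replicate 2, with 12, 9 and 11 of the 260 among them. The 260 genes, selected with these same libraries, were likely to keep their direction, and did so in each of these fits. Called in all 4 of them were 6 genes: FBL, SNORD17, RPL13A, NOTCH3, HERPUD1 and EIF4G2. The remaining calls below therefore each lapse when at least 1 library is left out.

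Among the partners of FBL, NOP58 rose and NOP56 did not pass the test. NOP56 had 359.5 and 354 CPM with siFBL, against 206 and 204 CPM with siCTRL (log2 change 0.80 ± 0.22, SE; edgeR adjusted p = 0.067). NOP58 had 128 and 145 CPM with siFBL, against 85.1 and 84.0 CPM with siCTRL (0.69 ± 0.15, SE; edgeR adjusted p = 0.027). For both genes the siFBL and siCTRL libraries did not overlap. NHP2L1, the RNA-binding protein of the particle, had 85.1 and 112 CPM with siFBL, against 91.4 and 95.3 CPM with siCTRL, and its groups overlapped (log2 change 0.08). Members of the sister particle, the H/ACA snoRNP that guides pseudouridylation, were not called (0 of 6). DKC1, its pseudouridine synthase, had 200.2 and 218 CPM with siFBL, against 117 and 118 CPM with siCTRL (0.83; edgeR adjusted p = 0.10), and NHP2 changed by 0.19. None of the 11 snoRNP assembly factors was called, and the 2 with the highest level, NOLC1 and RUVBL2, had log2 changes of 0.06 and 0.03.

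**Figure D2:**
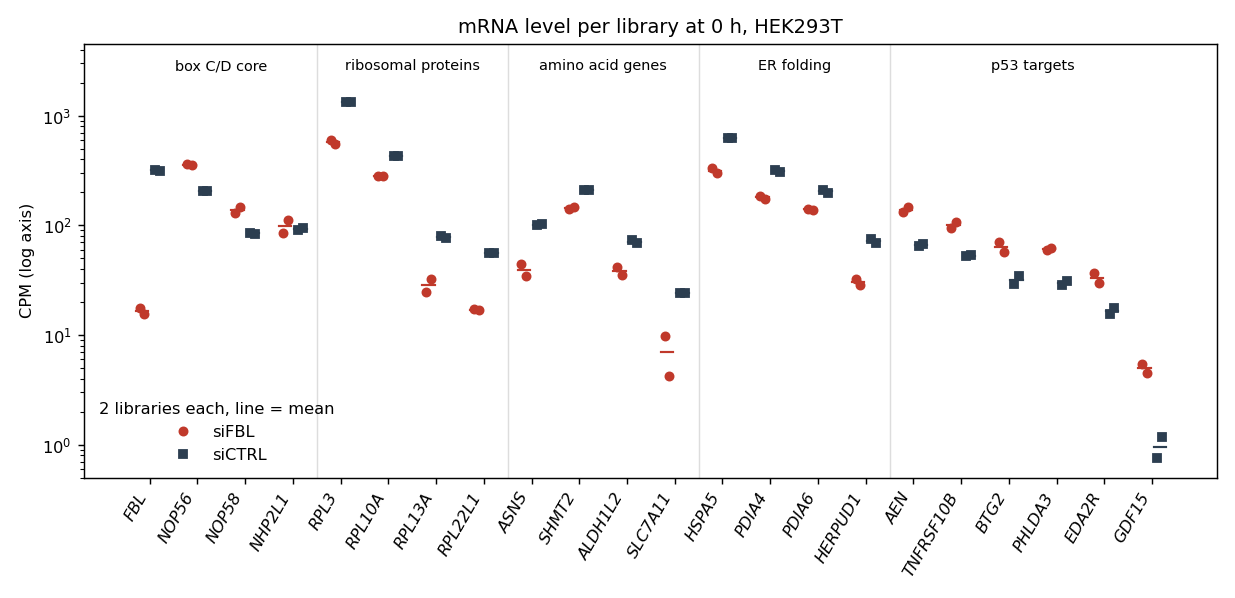
Level of 22 named genes in each library in CPM (log axis), with siFBL as red circles and siCTRL as dark squares, 2 libraries each, and a line at the mean. FBL, the ribosomal protein, amino acid and ER folding genes shown lie lower with siFBL and the p53 targets higher, without overlap, while NHP2L1 overlaps.

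Of the SNORDs, 50 of 262 in the table passed the filter, and SNORD17 was the single one called. It was covered by 19 and 31 counts with siFBL, against 102 and 131 counts with siCTRL, which gives 0.88 and 1.46 CPM with siFBL, against 4.52 and 5.64 CPM with siCTRL. The fall of 2.12 on the log2 scale (SE 0.26; edgeR adjusted p = 8.14e-04) exceeded the spread of either pair. Its sequence is shown because this snoRNA is named by the 2 boxes that bind the particle; capitals mark the C box (TGATGA) and the D box (CTGA).
SNORD17: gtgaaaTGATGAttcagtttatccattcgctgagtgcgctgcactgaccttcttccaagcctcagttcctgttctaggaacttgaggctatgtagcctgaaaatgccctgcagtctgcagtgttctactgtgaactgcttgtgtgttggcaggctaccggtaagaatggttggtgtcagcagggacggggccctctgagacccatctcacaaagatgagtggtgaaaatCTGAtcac
The gene spans 237 bases, chr20:17962710-17962946 on the minus strand (GRCh38, GENCODE v29). Its C box starts at base 7 and its last CTGA at base 230, counted from the 5′ end; the same letters in that order occur in 209 of the 275 SNORD genes of that annotation (76.0%). SNORD17 lies within SNX5, whose log2 change was -0.80 (edgeR adjusted p = 0.060; named after its value was seen). These counts do not separate reads of the snoRNA from reads of its host intron. The 50 SNORDs tested, SNORD17 included, lay on both sides of 0, with 27 above it and 23 below. Of them, 12 had siFBL libraries wholly above siCTRL and 11 wholly below, against 33.4% and 26.4% of all genes. Their median was 0.09, and -0.16 without siFBL replicate 2. Since the libraries hold polyA RNA, a mature snoRNA without a polyA tail is poorly represented: 145 of the 262 SNORDs had no count in any of the 4 libraries, and together they made up 43.3 and 47.4 CPM with siFBL and 46.0 and 48.4 CPM with siCTRL.

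No SNORA (34 tested, median log2 change 0.15) and no SCARNA of Cajal bodies (7 tested, median 0.26) was called by edgeR, and 2 SNORAs higher, 1 SNORA lower and 0 SCARNAs had an unadjusted p below 0.05. SNORA18 and SNORA8, the SNORAs with the highest level, had log2 changes of 0.16 and 0.39, and SCARNA12 and SCARNA27 of 0.26 and -0.11. Genes that carry a SNORD within them by annotation were called in 5 of 65 cases, EIF4G2 and NOP58 higher and RPL13A, RPL3 and SNHG5 lower, with a median of 0.04 (-0.02 without siFBL replicate 2). SNHG5, a noncoding host, had 13.7 and 21.5 CPM with siFBL, against 33.0 and 36.5 CPM with siCTRL (log2 change -0.98; edgeR adjusted p = 0.022). TPT1, which hosts a SNORA, had 459 and 422 CPM with siFBL, against 626 and 624 CPM with siCTRL (-0.51; edgeR adjusted p = 0.029). Among 88 genes that carry a SNORA, 1 was called higher and 1 lower, close to the 0.93% and 0.81% of all genes.

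Ribosomal protein mRNAs lay mostly below 0 with siFBL, and 3 of 77 fell. RPL13A, a large-subunit protein whose introns carry several SNORDs, had 24.9 and 32.3 CPM with siFBL, against 79.3 and 76.2 CPM with siCTRL (log2 change -1.44 ± 0.15, SE; edgeR adjusted p = 1.34e-04). RPL3, which forms part of the peptidyl transferase region, had 602 and 550.3 CPM with siFBL, against 1340.5 and 1332 CPM with siCTRL (-1.21 ± 0.20, SE; edgeR adjusted p = 0.0074). RPL10A had 281 and 284 CPM with siFBL, against 429 and 432 CPM with siCTRL (-0.61; edgeR adjusted p = 0.032). The siFBL libraries lay below the siCTRL libraries without overlap in these 3 genes and in 47 of the 77 in all, where 26.4% of all genes did so. The median of the 77 was -0.19, with 66 below 0 and 11 above. It was -0.31 with upper quartile normalisation and -0.09 with ribosomal protein scaling, where that of all genes was -0.07 and 0.15. A scaling shifts all genes nearly alike, and the second is set by these same mRNAs, so neither is a separate check. The summed level of the list was 56106 and 57076 CPM with siFBL, against 60998 and 60934 CPM with siCTRL. Many of these genes have near-identical processed copies, and no source used here says how such reads were counted, so single members are uncertain. Among the 7 paralogs tested, RPL22L1, which can take the place of RPL22, had 17.1 and 16.98 CPM with siFBL, against 56.0 and 55.3 CPM with siCTRL (-1.71; edgeR adjusted p = 0.043). Of 76 mitochondrial ribosomal proteins, 0 were called, with 7 higher and 0 lower at an unadjusted p below 0.05 and a median of 0.15; MRPL37 changed by 0.35 and MRPL4 by 0.44.

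The factors that build ribosomes lay mostly above 0. Of 65 ribosome biogenesis genes, 60 had a log2 change above 0, the median was 0.39, and 2 were called, both higher. CIRH1A (UTP4), a protein of the small-subunit processome, had 196 and 235 CPM with siFBL, against 114 and 109.9 CPM with siCTRL (0.94; edgeR adjusted p = 0.035). RRS1, which takes part in assembly of the large subunit, had 49.8 and 71.2 CPM with siFBL, against 33.1 and 30.5 CPM with siCTRL (0.93; edgeR adjusted p = 0.024). In 54 of the 65 genes the siFBL libraries lay above the siCTRL libraries without overlap, where 33.4% of all genes did so. The median of the list was 0.28 in siFBL replicate 1 and 0.47 in replicate 2. With upper quartile normalisation and ribosomal protein scaling it was 0.27 and 0.50, where that of all genes was -0.07 and 0.15. Such a scaling shifts all genes nearly alike and is no separate check. Of the 16 RNA polymerase I genes tested, 0 were called by edgeR, 2 were higher at an unadjusted p below 0.05, and the median was 0.35; UBTF changed by 0.38 and BAZ2A by -0.12.

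**Figure D3:**
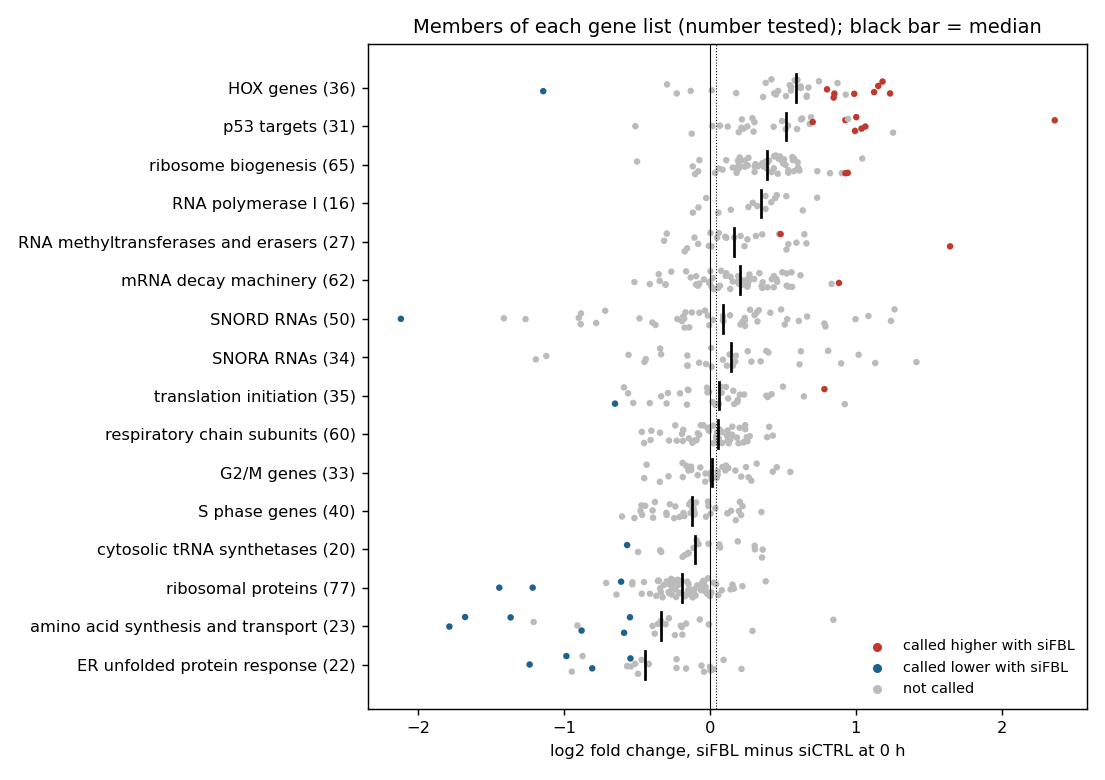
Log2 fold change of each tested member of 16 gene lists, siFBL minus siCTRL at 0 h, with red points called higher, blue points called lower and grey points not called; the black bar is the list's median and the dotted line the median of all genes tested. Medians run from 0.59 for the HOX genes at the top to -0.44 for the unfolded protein response at the bottom.

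Genes of amino acid synthesis and transport held 6 falls with siFBL and no rise, where 0.81% of all genes were called lower. All 23 were tested, and 21 had a log2 change below 0, with a median of -0.34. ASNS, asparagine synthetase, had 44.0 and 34.4 CPM with siFBL, against 99.6 and 102 CPM with siCTRL (-1.36 ± 0.18, SE; edgeR adjusted p = 0.0018). SLC7A11, the cystine and glutamate exchanger, had 9.74 and 4.19 CPM with siFBL, against 23.9 and 24.1 CPM with siCTRL (-1.78 ± 0.34, SE; edgeR adjusted p = 0.016), and its siFBL libraries differed from each other by 1.19 on the log2 scale. SLC7A3, a transporter of cationic amino acids, had 1.94 and 1.599 CPM with siFBL, against 5.32 and 6.02 CPM with siCTRL (-1.68). ALDH1L2 and SHMT2 serve mitochondrial folate metabolism, and CTH makes cysteine from cystathionine. Their log2 changes were -0.88, -0.55 and -0.59, with edgeR adjusted p = 0.031, 0.048 and 0.049. Without siFBL replicate 1, 2 of the 23 were called lower, without siFBL replicate 2 none was, and 1 was without siCTRL replicate 1 and likewise without siCTRL replicate 2. The immediate stress regulators around ATF4, the transcription factor that drives many of these genes, held calls in both directions. Of 15 tested, DDIT4 was lower, and GDF15, which is also on the list of p53 targets below, was higher. The list median was 0.26. Without siFBL replicate 1 that median was 0.11, and without siFBL replicate 2 it was -0.04. DDIT4, an inhibitor of mTORC1, had 68.9 and 41.5 CPM with siFBL, against 158 and 158 CPM with siCTRL (-1.52 ± 0.27, SE; edgeR adjusted p = 0.012).

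Genes of the unfolded protein response of the endoplasmic reticulum (ER), chaperones among them, held 4 falls and no rise (0.81% of all genes fell). Of the 22 tested, 17 had a log2 change below 0 and the median was -0.44. HSPA5 (BiP), the main Hsp70 of the ER, had 331 and 299.8 CPM with siFBL, against 622 and 625 CPM with siCTRL (-0.98 ± 0.19, SE; edgeR adjusted p = 0.016). HERPUD1, which acts in ER-associated degradation, had 32.1 and 28.8 CPM with siFBL, against 74.6 and 68.8 CPM with siCTRL (-1.23 ± 0.13, SE; edgeR adjusted p = 2.67e-04). The protein disulfide isomerases PDIA4 and PDIA6 changed by -0.81 and -0.54, with edgeR adjusted p = 0.038 and 0.042. All 4 had siFBL libraries below siCTRL libraries without overlap, as did 14 of the 22 genes and 26.4% of all genes. Without siFBL replicate 1, 2 of the 22 were called lower, and without any other single library 1 was. The cytosolic heat shock genes held 0 called of 21, with 3 higher and 2 lower at an unadjusted p below 0.05; HSP90AB1 changed by -0.44 and HSPA8 by 0.24. Of 20 cytosolic tRNA synthetases 1 was called: QARS, glutaminyl-tRNA synthetase, had 132 and 125 CPM with siFBL, against 191 and 189 CPM with siCTRL (-0.57; edgeR adjusted p = 0.023). The median of the synthetases was -0.10, where that of all genes was 0.04; when scaled to ribosomal protein mRNAs they were 0.01 and 0.15.

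Promoter stretches of 4 of these genes are shown because amino acid and ER stress genes are known for 2 short elements. The amino acid response core was searched as TGATGNAA and the ER stress element as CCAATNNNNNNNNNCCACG, both on both strands of RefSeq windows of 300 bases (GRCh38.p14), and the matches are in capitals; only bases before the annotated start are printed.
ASNS: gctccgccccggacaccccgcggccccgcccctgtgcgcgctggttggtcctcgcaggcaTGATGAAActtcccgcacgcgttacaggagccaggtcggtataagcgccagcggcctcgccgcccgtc
HERPUD1: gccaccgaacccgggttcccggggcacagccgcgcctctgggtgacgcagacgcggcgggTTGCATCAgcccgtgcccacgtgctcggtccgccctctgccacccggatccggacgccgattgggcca
HSPA5: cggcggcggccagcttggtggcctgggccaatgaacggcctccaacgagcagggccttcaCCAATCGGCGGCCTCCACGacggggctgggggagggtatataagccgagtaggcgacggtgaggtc
PDIA6: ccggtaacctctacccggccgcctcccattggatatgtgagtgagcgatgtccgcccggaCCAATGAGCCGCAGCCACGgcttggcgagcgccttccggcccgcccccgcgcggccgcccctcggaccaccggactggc
These are chr7:97872409-97872536 on the minus strand for ASNS, chr16:56931906-56932033 on the plus strand for HERPUD1, where the match is on the opposite strand, chr9:125241344-125241469 on the minus strand for HSPA5 and chr2:10812793-10812931 on the minus strand for PDIA6. The matches begin 68, 176, 66 and 86 bases before the start. The amino acid response core occurred in 4.46% of the 27305 genes with a window, in 5 of the 96 higher genes with a window and in 3 of the 81 lower genes with one (ASNS, HERPUD1 and JDP2). The ER stress element occurred in 0.0916% of genes with a window, in 0 of those 96 higher genes and in 3 of those 81 lower genes (HSPA5, PDIA6 and SYNPO). Within the lists, 7 of 16 amino acid genes and likewise 7 of 16 tRNA synthetases with a window held the first element, and 7 of 21 unfolded protein response genes held the second, whether called or not. A match describes the letters in a window and no binding was measured.

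Known p53 targets held 7 rises and no fall, where 0.93% of all genes were called higher. Of 31 tested, 29 had a log2 change above 0, and the median was 0.52. GDF15, a secreted stress cytokine, had 5.45 and 4.47 CPM with siFBL, against 0.75 and 1.16 CPM with siCTRL (2.36 ± 0.48, SE; edgeR adjusted p = 0.021). AEN, a nuclease that acts in apoptosis, had 131 and 146 CPM with siFBL, against 65.3 and 67.3 CPM with siCTRL (1.06 ± 0.16, SE; edgeR adjusted p = 0.0042). TNFRSF10B, a death receptor for TRAIL, had 93.6 and 107 CPM with siFBL, against 52.1 and 53.3 CPM with siCTRL (0.93; edgeR adjusted p = 0.012). PHLDA3, which restrains Akt, EDA2R, a receptor for ectodysplasin, and BTG2, an antiproliferative gene, changed by 1.038, 1.002 and 0.994, with edgeR adjusted p = 0.035, 0.030 and 0.035. Their siFBL libraries lay above the siCTRL libraries without overlap, as did those of 20 of the 31 genes and of 33.4% of all genes. The list median was 0.51 in siFBL replicate 1 and 0.47 in replicate 2. Without siFBL replicate 1, 2 of the 31 were called, and without any other single library none was.

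No gene of the G2/M and S phase lists was called. Cell cycle genes outside these lists were not examined as a group. With 1.74% of all genes called, few calls would fall in lists of this size. At an unadjusted p below 0.05, 1542 of all 14939 genes were higher and 1144 lower. Of 33 G2/M genes 0 passed by edgeR, 4 were higher and 0 lower at an unadjusted p below 0.05, and the median was 0.01 (-0.07 without siFBL replicate 1). MKI67, the proliferation antigen, had 487 and 460.1 CPM with siFBL, against 515 and 534 CPM with siCTRL, and PLK1, a mitotic kinase, had 428 and 548 CPM with siFBL, against 361 and 349 CPM with siCTRL (log2 changes -0.15 and 0.46). Of 40 S phase genes 0 passed, 0 were higher and 4 lower at an unadjusted p below 0.05, and the median was -0.13; MCM7 and MCM4 of the replicative helicase changed by 0.01 and -0.27. Replication-dependent histones, whose mRNAs normally lack a polyA tail, held 0 called of 23; HIST1H2BK changed by -0.07 and HIST1H1C by 0.71.

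Transcripts for RNA modification, decay and translation held a few single calls, where 0.93% of all genes were called higher and 0.81% lower. TRMT61A, the catalytic subunit of a tRNA methyltransferase, had 60.2 and 104 CPM with siFBL, against 26.9 and 25.5 CPM with siCTRL (1.64 ± 0.40, SE; edgeR adjusted p = 0.048). RBM15B, an adaptor of the m6A writer complex, changed by 0.48 (edgeR adjusted p = 0.049). These were 2 of 27 RNA methyltransferases and erasers, with a median of 0.17. Among 62 genes of mRNA decay 1 was called: SMG9, a partner of the SMG1 kinase in nonsense-mediated decay, had 86.5 and 102 CPM with siFBL, against 52.1 and 50.0 CPM with siCTRL (0.88; edgeR adjusted p = 0.020). The 8 m6A readers held no call, and IGF2BP1 and YTHDF2 changed by 0.39 and 0.32. Of 35 translation initiation factors, EIF4G2 (DAP5), a relative of EIF4G1 that lacks the binding site for the cap-binding protein, had 1874 and 1904 CPM with siFBL, against 1120.4 and 1073 CPM with siCTRL (0.78 ± 0.09, SE; edgeR adjusted p = 5.14e-04). EIF4B, a cofactor of the EIF4A helicase, had 333 and 328 CPM with siFBL, against 518 and 519 CPM with siCTRL (-0.65; edgeR adjusted p = 0.022).

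Single genes of metabolism and signalling led the rest. TXNIP, an arrestin-family protein that binds thioredoxin and limits glucose uptake, had 73.2 and 65.8 CPM with siFBL, against 21.0 and 18.7 CPM with siCTRL (1.81 ± 0.26, SE; edgeR adjusted p = 0.0035). It was the 1 call among 10 arrestin and glucose-sensing genes. COX19, an assembly factor of cytochrome oxidase, had 21.9 and 34.8 CPM with siFBL, against 10.6 and 9.85 CPM with siCTRL (1.47), and was the 1 call among 11 such factors. Respiratory chain subunits held 0 called of 60, with 4 higher and 0 lower at an unadjusted p below 0.05; UQCRC1 and COX6A1 both changed by 0.24. Of 22 glycolysis genes, PFKL, a phosphofructokinase, was called lower (-0.40; edgeR adjusted p = 0.049). Cholesterol and fatty acid synthesis held 0 called of 31, with 1 higher and 6 lower at an unadjusted p below 0.05; FASN changed by 0.34 and SCD by -0.31. The interferon list held 0 called of 26, with 1 higher and 4 lower at that level; STAT2 changed by -0.34. SRF, the serum response factor, was the 1 call among 37 immediate early genes (0.67; edgeR adjusted p = 0.023), and the median of that list was 0.08 in replicate 1 and 0.71 in replicate 2.

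Among called genes of at least 5 CPM, the largest rises besides TXNIP, TRMT61A and COX19 were those of CIDECP (1.82), NOXO1 (1.81), SEMA3C (1.49), SBDSP1 (1.39), ZBTB2 (1.36), BRPF3 (1.32) and SMAD7 (1.29). NOXO1 organises an NADPH oxidase, SEMA3C is a secreted semaphorin, BRPF3 is a scaffold of a histone acetyltransferase, and SMAD7 inhibits signalling by TGF-beta. CIDECP and SBDSP1 are pseudogenes and may share reads with CIDEC and SBDS. ZBTB2, a zinc finger repressor, had 70.1 and 107 CPM with siFBL, against 35.3 and 33.9 CPM with siCTRL (edgeR adjusted p = 0.0021). The largest falls besides FBL, SLC7A11, RPL22L1, DDIT4 and RPL13A were those of C1orf95 (-1.96), SULT1A1 (-1.70), TFCP2L1 (-1.61), CREB3L1 (-1.43) and NOTCH3 (-1.39). NOTCH3, a Notch receptor, had 29.6 and 26.8 CPM with siFBL, against 72.4 and 75.7 CPM with siCTRL (edgeR adjusted p = 9.83e-05). CREB3L1 is a transcription factor anchored in the ER membrane, and it had 3.56 and 3.62 CPM with siFBL, against 10.1 and 9.25 CPM with siCTRL. Of called genes with a high level, SRM, spermidine synthase, changed by 0.76, IRAK1, a kinase of interleukin receptors, by 0.76, EWSR1, an RNA-binding protein, by 0.54, CIZ1 by 0.80 and ACTG1, a cytoplasmic actin, by -0.58.

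HOX genes, the transcription factors that specify position along the body axis, were examined after their values were seen. Of 36 tested, 8 were called higher and 1 lower, 32 had a log2 change above 0, and the median was 0.59. HOXB9 had 487 and 557 CPM with siFBL, against 298 and 301 CPM with siCTRL (0.80 ± 0.13, SE; edgeR adjusted p = 0.0066). HOXA5 had 173 and 197 CPM with siFBL, against 80.3 and 83.1 CPM with siCTRL (1.18). HOXA6, HOXA3, HOXC8, HOXD11, HOXB2 and HOXA9 changed by 1.23, 1.15, 1.12, 0.99, 0.85 and 0.85. HOXA13, at the 5′ end of the HOXA cluster, went the other way, with 18.0 and 15.5 CPM with siFBL, against 37.3 and 36.7 CPM with siCTRL (-1.14; edgeR adjusted p = 0.0057). In 30 of the 36 genes siFBL lay wholly above siCTRL, where 33.4% of all genes did so. HOXA9 was also the 1 call among the 12 HEK293T markers, whose summed level was 1709 and 1941 CPM with siFBL, against 1357 and 1366 CPM with siCTRL. Without siFBL replicate 1, 6 HOX genes were called higher and 1 lower, and without any other single library none was.

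**Figure D4:**
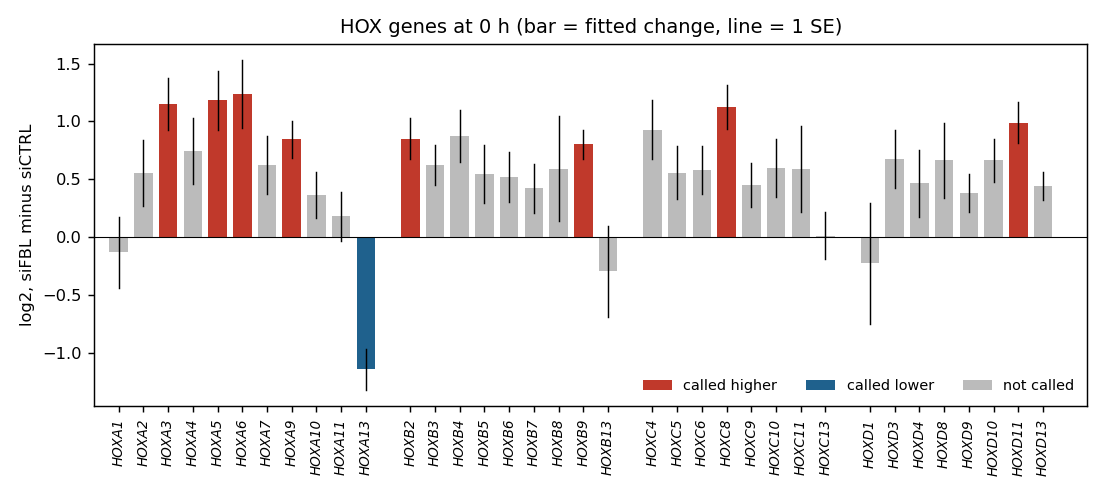
Log2 fold change of 36 HOX genes, siFBL minus siCTRL at 0 h, ordered along the HOXA, HOXB, HOXC and HOXD clusters; bars are the fitted change, lines 1 SE, red called higher, blue called lower and grey not called. Most bars lie above 0, and HOXA13 at -1.14 is the 1 called below it.

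The same knockdown was available at 0 h in C4-2, an androgen-independent prostate cancer line (2 libraries with siFBL and 2 with siCTRL), and the difference between the cell lines was tested in 1 model of both time courses. The response differed in 1321 of 17634 genes (7.49%), with 747 differences above 0 and 574 below, as HEK293T minus C4-2. Joint scaling placed each difference about 0.22 below that of the changes fitted in each line alone. FBL fell by 4.26 on the log2 scale in HEK293T and fell by 6.48 in C4-2 (difference 2.00; edgeR adjusted p = 0.055).

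Cell cycle genes differed between the lines. The list medians in C4-2 are read against -0.19, the median there of the 14553 genes tested in both lines. Of 33 G2/M genes, 30 had a called difference, all above 0, with median changes of 0.01 in HEK293T and -2.15 in C4-2. For 40 S phase genes the count was 34, all above 0, with medians of -0.13 in HEK293T and -1.81 in C4-2. The p53 targets had a called difference in 13 of 30, all below 0, with medians of 0.52 in HEK293T and 1.36 in C4-2. Ribosome biogenesis genes differed in 12 of 65, all above 0, with medians of 0.39 in HEK293T and -0.45 in C4-2. Ribosomal proteins differed in 2 of 78, both below 0, and had medians of -0.19 in HEK293T, below the 0.04 of all genes, and of -0.20 in C4-2, close to the median of all genes there. For amino acid genes, 1 difference was called above 0 and 3 below, with medians of -0.34 in HEK293T and -0.48 in C4-2. SNORD17 changed by -2.12 in HEK293T and by -2.61 in C4-2, and this difference was not called (edgeR adjusted p = 0.89). DDIT4 changed by -1.52 in HEK293T and by 1.22 in C4-2, with 106 and 149 CPM with siFBL in C4-2, against 56.2 and 53.5 CPM with siCTRL (edgeR adjusted p = 0.0053 in C4-2).

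**Figure D5:**
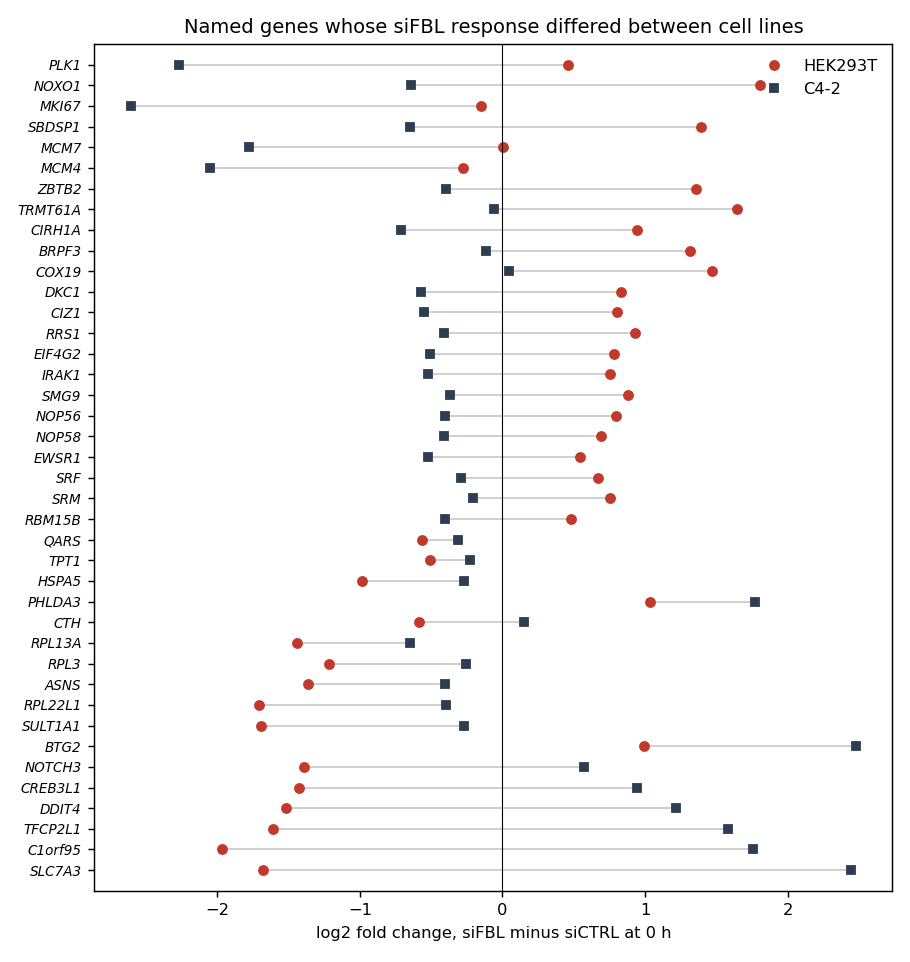
Log2 fold change, siFBL minus siCTRL at 0 h, in HEK293T (red circles) and C4-2 (dark squares), each from its own fit, for the 40 named genes whose difference was called; genes are ordered by that difference. PLK1, MKI67, MCM7 and MCM4 lie between -0.27 and 0.46 in HEK293T and between -2.61 and -1.78 in C4-2, while NOTCH3, DDIT4 and SLC7A3 lie below 0 in HEK293T and above 0 in C4-2, where DDIT4 alone of these 3 was called.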

How the data were processed

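RNA-seq of polyA RNA was compared between siFBL and siCTRL HEK293T cells at 0 h. The values are read counts per gene symbol that the authors deposited, whole numbers with no normalisation seen in them; no source used here gives the aligner, counter or strand setting. The builds hg38, GRCh38.p13 and hg19 are named without a role per the submitters' processing notes, so coordinates are given only for sequences taken from GENCODE v29 (GRCh38) and RefSeq (GRCh38.p14). Without a stated strand, reads of overlapping, antisense and near-identical genes cannot be told apart. No molecular identifiers are stated, so counting precision is that of reads, with 2 libraries per group and 16.66 to 17.54 M counts in each.

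Counts were fitted with edgeR 4.0.16 in R 4.3.3 (TMM, filterByExpr, quasi-likelihood test, Benjamini-Hochberg adjusted p below 0.05 called) over 24 HEK293T libraries, with 1 mean per siRNA and hour and 12 residual degrees of freedom; CPM are counts divided by the TMM-scaled library size in M, not per length. A fold change is 2 to the power of the fitted log2 change. The cell lines were compared as an interaction over these and 16 C4-2 libraries, whose columns name a group but not which sample of it. On simulated counts with 14939 genes, 48% of genes changed 2-fold and 96% of those changed 3-fold were recovered. The simulation drew libraries independently, with the same spread for both siRNAs, and changed only genes of at least 5 CPM. The real siFBL libraries deviated alike over hours and differed more than the siCTRL libraries, so recovery in the real comparison was not measured. DESeq2 1.42.0 and limma 3.58.1 gave alternatives. Same-numbered siFBL and siCTRL libraries shared no deviation: their deviations correlated at 0.0029 at 0 h and between -0.03 and 0.03 at the later hours. The siCTRL libraries hardly differed (SD of the log2 difference 0.10 at 0 h), so this cannot decide whether libraries were handled in pairs.

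Named genes are the box C/D core; among called genes of at least 5 CPM, the 10 largest rises and 10 largest falls and the 6 rises and 6 falls with the highest level; and per list up to 6 called members by size of change, or the 2 with the highest level where none was called; for 2 lists, 1 such gene is not reported here. The comparison, the gene lists and the rule were chosen with earlier results of these data known, so a list's direction is no independent evidence. No set test was run, and lists are given by counts and medians. SLAM-seq, RNA immunoprecipitation and nanopore data were not used here.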

Additional observations from a re-analysis of the deposited data

Results flagged for a closer look

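Of the named genes, 40 are listed here because their response to siFBL at 0 h differed between HEK293T and C4-2 in the edgeR test of that difference (HEK293T minus C4-2, log2, from the joint fit, whose scaling sets each value about 0.22 lower than the separate fits would). What lies behind these differences was not tested.

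In some genes called in HEK293T, the change in C4-2 was called by edgeR in the opposite direction. These were C1orf95, DDIT4 and SBDSP1, and also EIF4G2, CIZ1, CIRH1A and EWSR1, whose differences are given in the next paragraph. The difference was -3.94 for C1orf95 and -2.94 for DDIT4, both lower in HEK293T, and 1.82 for SBDSP1, higher in HEK293T. In other genes called lower in HEK293T, the C4-2 change was fitted above 0 but not called: the difference was -4.33 for SLC7A3, -3.41 for TFCP2L1, -2.56 for CREB3L1, -2.17 for NOTCH3 and -0.95 for CTH. SLC7A3 had 0.87 and 0.39 CPM with siFBL in C4-2, against 0.074 and 0.15 CPM with siCTRL, and NOTCH3 had 106 and 228 CPM with siFBL in C4-2, against 109 and 115 CPM with siCTRL. In some other genes called higher in HEK293T, no C4-2 change was called: the difference was 2.24 for NOXO1, 1.54 for ZBTB2, 1.48 for TRMT61A, 1.22 for BRPF3 and 1.21 for COX19. In C4-2 the fitted changes of TRMT61A, BRPF3 and COX19 were -0.06, -0.11 and 0.05.

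Of the ribosome and snoRNP genes, the difference was 1.44 for CIRH1A, 1.12 for RRS1, 1.18 for DKC1, 0.98 for NOP56 and 0.88 for NOP58. Among abundant mRNAs it was 1.08 for EIF4G2, 1.14 for CIZ1, 1.07 for IRAK1, 0.85 for EWSR1 and 0.74 for SRM, and in regulators 1.04 for SMG9, 0.68 for RBM15B and 0.74 for SRF. All of these were fitted above 0 in HEK293T and below 0 in C4-2, where CIRH1A, DKC1, EIF4G2, CIZ1 and EWSR1 were called lower. The median change in C4-2 of the genes tested in both lines was -0.19.

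Some genes were called lower in HEK293T and fitted nearer to 0, but below it, in C4-2, where RPL13A alone of them was called. The difference was -1.53 for RPL22L1, -1.17 for RPL3, -1.02 for RPL13A, -1.64 for SULT1A1, -1.18 for ASNS, -0.93 for HSPA5, -0.50 for TPT1 and -0.47 for QARS. The p53 targets BTG2 and PHLDA3 were called higher in both lines, with differences of -1.70 and -0.94.

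Growth genes that were not called in HEK293T showed positive differences, 2.50 for PLK1, 2.23 for MKI67, 1.57 for MCM7 and 1.55 for MCM4. In C4-2 their log2 changes were -2.27, -2.61, -1.78 and -2.05.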

How the results depend on the processing

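Against 260 called genes (139 higher and 121 lower), ribosomal protein scaling gave 172 with 56 lower, and upper quartile normalisation 79 higher and 243 lower. DESeq2 called 778 (426 and 352), the 16 siFBL and siCTRL libraries 797 (309 and 488), the 6 libraries at 0 h 10 (2 and 8), and the 4 libraries at 0 h alone 1 (0 and 1). Limma-voom with libraries of one siRNA and number correlated (0.60), an alternative chosen after seeing the data, called 797 (467 and 330). With the replicate number as a block, 861 genes were called (491 and 370). Same-numbered libraries of siFBL and siCTRL shared no deviation in these data. Because the siCTRL libraries hardly differed, this cannot decide whether a block is called for. The siNOP56 libraries were not compared in this way. Leaving out 1 library gave 10 to 165 genes, 1 to 98 higher and 8 to 67 lower; a lone library was assumed to vary like the other groups. The causes of these shifts were not tested. Genes whose response differed between cell lines numbered 1321, and 646 to 1086 without 1 library; their share above 0 was 56.5%, against 48.3% with DESeq2 and 66.0% with the 8 libraries at 0 h alone. FBL kept its call in all settings.

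The direction turned in 9 named genes, none of them called. Upper quartile normalisation set the median of all genes at -0.07 and ribosomal protein scaling at 0.15, against 0.04 with TMM. Turns under these 2 come with a shift shared by all genes and say nothing of the single genes. Other settings also lowered most list medians. That of the G2/M genes went from 0.01 to -0.06 with a mean of at least 5 CPM and -0.05 with the 16 libraries. It was -0.02 with 4 and with 6 libraries at 0 h, and 0.004 with DESeq2 and with its size factors. Turns under these settings say no more of the single genes. With upper quartile normalisation NHP2L1 came to -0.041, NOLC1 to -0.055, RUVBL2 to -0.085 and MCM7 to -0.11. With a mean of at least 5 CPM NOLC1 came to -0.012, RUVBL2 to -0.042 and MCM7 to -0.064. With the 16 libraries NOLC1 came to -0.0049, RUVBL2 to -0.034 and MCM7 to -0.056. MCM7 came to -0.0015 with DESeq2 and with its size factors, and to -0.030 with 4 and -0.031 with 6 libraries at 0 h, where RUVBL2 came to -0.0080 and -0.0087. With ribosomal protein scaling HIST1H2BK came to 0.036 and FOXA1 to 0.055. Over the fits without 1 library, NHP2L1 ranged over -0.16 to 0.23, RUVBL2 over -0.035 to 0.035, SCARNA12 over -0.010 to 0.44, SCARNA27 over -0.50 to 0.20, MCM7 over -0.075 to 0.029, HIST1H2BK over -0.34 to 0.11, FOXA1 over -0.21 to 0.035 and PDGFRB over -0.0055 to 1.80. In 310 comparisons a named gene's call was lost in the same direction, and in 10 it was gained.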

Other observations

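Some genes of at least 5 CPM lay far apart between the siFBL libraries and were not called; the examples were chosen after their values were seen and stand for no group of genes. VGF, a secreted neuropeptide precursor, had 1.29 and 22.4 CPM in siFBL replicates 1 and 2, against 1.77 and 2.11 CPM with siCTRL. CHGA, chromogranin A, had 2.40 and 25.1 CPM with siFBL, against 2.22 and 1.89 CPM with siCTRL, and SYP, synaptophysin, 22.4 and 142 CPM with siFBL, against 19.8 and 21.9 CPM with siCTRL. CPLX1, a regulator of synaptic vesicle fusion, had 7.02 and 72.7 CPM with siFBL, against 6.79 and 7.14 CPM with siCTRL. JUNB, an immediate early transcription factor, had 17.9 and 136 CPM with siFBL, against 32.4 and 31.2 CPM with siCTRL.

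In each of these genes siFBL replicate 2 was the high library. In CEP55, a gene of cytokinesis, it was the low one, with 76.7 and 18.3 CPM in siFBL replicates 1 and 2, against 75.8 and 73.0 CPM with siCTRL. CALD1, an actin-binding protein, had 92.5 and 24.6 CPM with siFBL, against 81.2 and 82.7 CPM with siCTRL. In VGF, CHGA, SYP and CPLX1, replicate 1 lay within 0.55 of the siCTRL mean on the log2 scale.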
